A study of Mus musculus with 5 samples.

Results

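Alx1 and Alx4, 2 of the 24411 genes counted, encode paired-type homeodomain transcription factors and were taken as members by name. Their levels were followed in single cells from the circulating blood of mouse embryos. Every animal was wild type and of the C57BL/6 strain, at embryonic day 9.5 (E9.5, 2 batches) or embryonic day 10 (E10, 3 batches). Blood was taken from the heart, and cells lacking the surface proteins TER119, CD41, CD43 and CD45, which mark red cells, platelets and other blood cells, were sorted and picked singly. Of 480 wells, 294 passed the limits of 1000 detected genes and 30000 unique molecular identifiers (UMIs, each marking 1 captured transcript). The cell nearest above the UMI limit held 31294, and the well nearest below it held 28759. Nothing in the labels says that batches came from separate litters, so p-values measure only the spread between these samples.

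Alx1 and Alx4 are known from the mesenchyme of the embryonic face, much of it derived from cranial neural crest, where they act in the growth of the frontonasal region and the skull. Alx4 is also expressed in anterior limb bud mesenchyme, where it restricts Sonic hedgehog signalling. Hox genes are transcription factors whose combination records position along the body axis, and neural crest of the frontonasal region does not normally express them. In RefSeq annotation of GRCm38.p6, Alx1 lies at chr10:103007847-103029549 and Alx4 at chr2:93642434-93681341. GENCODE annotation places Alx1 on the minus strand and Alx4 on the plus strand. There Alx1 overlaps Gm17028, a long noncoding RNA gene on the same strand that was not among the genes counted. The Alx4 gene body overlaps that of Ext2, a heparan sulfate polymerase gene on the other strand. Ext2 was detected in 246 cells, of which 151 had 0 Alx4 UMIs. Ext2 averaged 57.0 CPM (UMIs of the gene scaled to a common total per cell) in cells with Alx4 at 50 CPM or more and 30.2 CPM in the rest. Whether Ext2 molecules entered the Alx4 count was not tested.

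The batches differed in depth and cell content. E9.5 replicates 1 and 2 gave 26 and 46 cells, and E10 replicates 1, 2 and 3 gave 87, 72 and 63. Median UMIs per cell ran from 144729 (E9.5 replicate 2) to 485692 (replicate 1 of E10), where 1 UMI in a cell of median depth equals 6.91 and 2.06 CPM. E10 replicate 2 stood apart in its cells: it held all 23 cells of an erythroid-like cluster and 36 of the 44 cells of a cluster led by Car12 and Col4a1. E10 replicate 1 held all 22 cells of a cluster led by Dppa5a that met the naming rule for pluripotent and germ cell markers. Cells with at least 100 CPM summed over Prrx1, Prrx2, Twist1 and Twist2, genes of embryonic mesenchyme, are called gated below. They made up 73.1% and 58.7% of E9.5 replicates 1 and 2, and 85.1%, 37.5% and 50.8% of the E10 batches.

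Both genes were low or absent in most cells and high in a few. Alx1 had 0 UMIs in 159 of the 294 cells and reached 50 CPM, the level called positive here, in 47. Alx4 had 0 UMIs in 180 cells and was positive in 42. The 47 Alx1-positive cells held 80.1% of all Alx1 UMIs, with a median of 34 UMIs and 123 CPM and a maximum of 490 CPM. The 42 Alx4-positive cells held 86.6% of the Alx4 UMIs, with a median of 40 UMIs and 94.8 CPM and a maximum of 303 CPM. The limit cut through a continuous range: 12 cells had a higher member level between 40 and 60 CPM. The cells with either gene positive, called Alx-high below, numbered 79, against 94 at a limit of 20 CPM and 46 at 100 CPM.

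Alx1 differed between batches of the same stage. Over all cells of a batch, Alx1 amounted to 11.9 CPM in E9.5 replicate 1 (90 UMIs) and 34.4 CPM in E9.5 replicate 2 (288 UMIs). In E10 replicates 1, 2 and 3 it amounted to 34.0, 4.49 and 19.3 CPM, from 1510, 109 and 390 UMIs. E9.5 replicate 2 and E10 replicate 1 were thus the highest and E10 replicate 2 the lowest, so each stage held a high and a low batch. Positive cells numbered 2 of 26 (7.69%, 95% exact interval 0.946 to 25.1%) and 12 of 46 (26.1%, 14.3 to 41.1%) at E9.5. At E10 they numbered 19 of 87 (21.8%, 13.7 to 32%), 3 of 72 (4.17%, 0.868 to 11.7%) and 11 of 63 (17.5%, 9.05 to 29.1%).

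Alx4 was concentrated in E10 replicate 1, which held 79.5% of its 2142 UMIs against 42.4% of the UMIs of all genes. Over all cells of a batch it amounted to 5.83 and 6.32 CPM in E9.5 replicates 1 and 2, from 44 and 53 UMIs. In E10 replicates 1, 2 and 3 it amounted to 38.3, 2.31 and 14.2 CPM, from 1702, 56 and 287 UMIs. A single cell held 70.5% of the Alx4 UMIs of E9.5 replicate 1. The E10 batches lay on both sides of the E9.5 batches. Positive cells numbered 1 of 26 (3.85%, 0.0973 to 19.6%) and 3 of 46 (6.52%, 1.37 to 17.9%) at E9.5. At E10 they numbered 28 of 87 (32.2%, 22.6 to 43.1%), 1 of 72 (1.39%, 0.0352 to 7.50%) and 9 of 63 (14.3%, 6.75 to 25.4%).

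**Figure D1:**
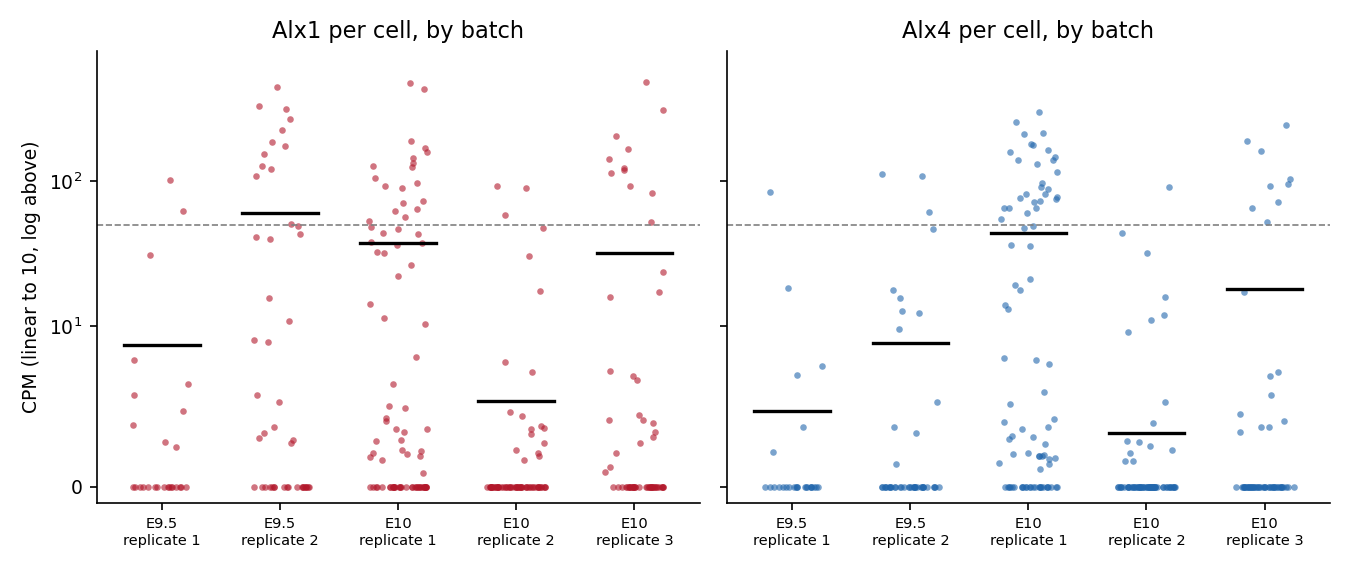
Alx1 (left) and Alx4 (right) in each of the 294 kept cells by batch, in CPM on an axis that is linear to 10 and logarithmic above. Points are cells, black bars the mean over cells, and the dashed line marks 50 CPM. Most points lie at or near 0, and E10 replicate 1 holds 28 of the 42 Alx4-positive cells.

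The stages were compared on counts summed per batch, where fewer positive cells and less RNA per cell cannot be told apart. With totals scaled by TMM, Alx1 stood at 25.1 ± 19.3 CPM (SD, n = 2) at E9.5 and 17.6 ± 12.1 CPM (SD, n = 3) at E10. The log2 fold change of E10 over E9.5 was -0.51 (SE 0.78, adjusted p = 0.876, edgeR quasi-likelihood test). Alx4 stood at 6.37 ± 1.08 CPM (n = 2) and 16.4 ± 15.4 CPM (n = 3), a log2 fold change of 1.36 (SE 0.97, edgeR adjusted p = 0.692). Neither gene passed the threshold, and the stages overlapped for both genes. Over all genes edgeR called 0 of 14103 (0.0%), with 1119 at an unadjusted p under 0.05, while DESeq2 called 86. Leaving out E9.5 replicate 2 turned the Alx1 value to 0.62, and leaving out E10 replicate 1 brought the Alx4 value to 0.36.

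Sums of gated cells alone gave no stage difference past the threshold either. Alx1 there stood at 11.7 and 94.7 CPM in the E9.5 batches and at 32.2, 4.92 and 48.5 CPM in E10 replicates 1, 2 and 3. Its log2 fold change was -0.89 (SE 0.92, edgeR adjusted p = 0.749). Alx4 stood at 8.86 and 16.7 CPM at E9.5 and at 40.7, 5.18 and 34.4 CPM at E10. Its log2 fold change was 1.08 (SE 0.80, edgeR adjusted p = 0.627). edgeR called 0 of 12647 genes (0.0%), with 1451 at an unadjusted p under 0.05, and DESeq2 called 303. Without E9.5 replicate 2 the Alx1 value was 1.29, and without E10 replicate 1 the Alx4 value was 0.64.

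The shares of positive cells gave no stage difference beyond the spread either. Alx1-positive cells made up 16.9 ± 13% (SD, n = 2) at E9.5 and 14.5 ± 9.20% (n = 3) at E10, with a two-sided exact permutation p of 0.8. Alx4-positive cells made up 5.18 ± 1.89% (n = 2) and 16.0 ± 15.5% (n = 3), with an exact permutation p of 0.5. Cells positive for both made up 1.09 ± 1.54% (n = 2) and 3.82 ± 2.81% (n = 3), with an exact permutation p of 0.4. With 10 splits of the batches, 0.1 is the smallest p this design can reach. These 3 p-values form 1 family and none would pass before adjustment.

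At the 50 CPM limit, most cells high in Alx1 or Alx4 were high in a single member. Both were positive in 10 cells, only Alx1 in 37, only Alx4 in 32 and neither in 215. By batch the double-positive cells numbered 0 of 26 (which allows a share of up to 11.5%) and 1 of 46 at E9.5, and 6 of 87, 1 of 72 and 2 of 63 at E10. Of the 47 Alx1-positive cells 22 held 0 Alx4 UMIs, at a median depth of 234151 UMIs per Alx1-positive cell. Of the 42 Alx4-positive cells 12 held 0 Alx1 UMIs, at a median depth of 384702. Alx4 was positive in 21.3% of Alx1-positive cells and in 13% of the others over all batches. Inside E10 replicate 1, which held 6 of the 10 double-positive cells, the shares were 31.6% and 32.4%. In that batch they were 53.3% and 29.8% at a limit of 20 CPM, with 16 double-positive cells, and 44.4% and 36.7% for any UMI after thinning to 30000 UMIs.

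In the gated cells Alx4 was positive in 24.4% of the Alx1-positive cells and 22.5% of the rest. Across the cells of a batch, which share their library, Spearman's rho between the genes was 0.16 and 0.21 in E9.5 replicates 1 and 2, over 26 and 46 cells. In E10 replicates 1, 2 and 3 it was 0.20, -0.12 and 0.25, over 87, 72 and 63 cells. Those values cover all kept cells. Among gated cells rho was 0.07 and -0.11 for the E9.5 batches, then 0.22, 0.25 and 0.07 for the E10 batches. Replicate 2 of each stage thus changed sign within the gate. Both batches also changed sign after thinning to 30000 UMIs, to -0.04 (E9.5) and 0.34 (E10). These weak values are given as a description, since many cells stood at 0 for either gene. The limit mattered: the share of Alx1-positive cells that were also Alx4-positive was 33.3% at 20 CPM and 10% at 100 CPM, against 12.3% and 6.06% of the other cells.

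**Figure D2:**
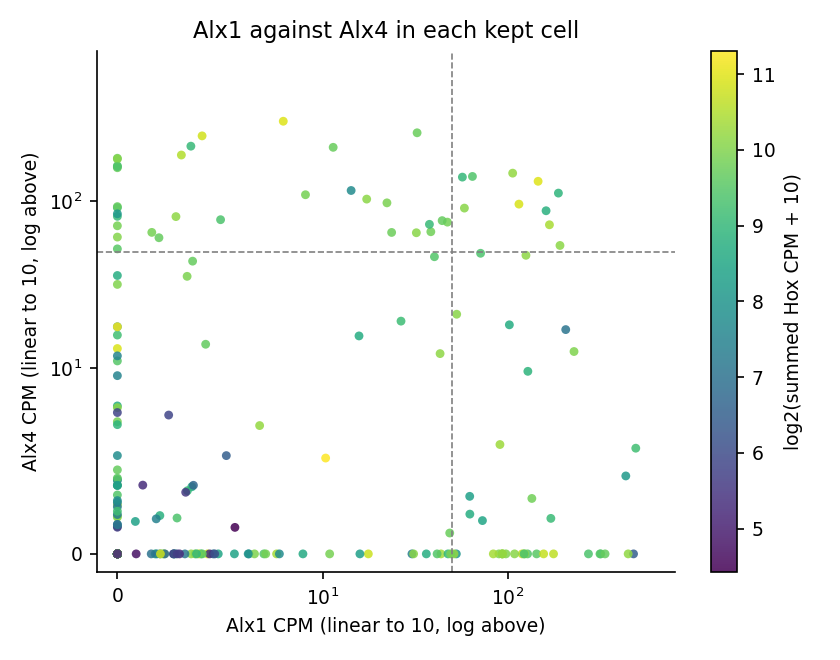
Alx4 against Alx1 in each of the 294 kept cells, in CPM on axes that are linear to 10 and logarithmic above, coloured by log2 of the summed Hox CPM with 10 added. Dashed lines mark 50 CPM: the upper right field holds 10 cells, the lower right 37 and the upper left 32.

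The first 10 genes that varied most like each member within batches shared Irx3 alone. By the mean over the 5 batches of Spearman's rho across cells, among 10495 genes with a UMI in at least 20% of cells, Alx1 was closest to Sfrp1 at 0.36, a secreted Wnt antagonist. Next came Tnfaip6 at 0.35, Hmgb1 at 0.34, Eva1b at 0.33 and Pdgfra, a PDGF receptor of mesenchyme, at 0.32. Irx3, an Iroquois homeobox gene, at 0.30, Tuba1b, Zfhx4, Pcdh18 and the collagen gene Col1a2 completed the first 10. Alx4 was closest to Rarg, a retinoic acid receptor, at 0.37, and to Prrx1, a mesenchymal homeobox gene, at 0.34. Irx3 followed at 0.32, then the collagen receptor gene Ddr2 at 0.31 and Crabp1, a retinoic acid binding protein gene, at 0.30. The others were 1110017D15Rik, Ankrd44, Igdcc3, Epb4.1 and Pard6g. Irx3 stood in both lists. Mean rho in the lists ran only from 0.28 to 0.37, and values varied between batches, for Sfrp1 from 0.02 to 0.65. Whether the members differ in the genes most like them was not tested. Alx4 ranked 863 among the genes closest to Alx1, and Alx1 ranked 539 for Alx4, at a mean rho of 0.14.

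Cells were clustered without the Alx and Hox genes into 12 clusters. The highest mean of Alx1 was in a histone-led cluster, and that of Alx4 in a mesenchymal-like cluster. Alx1 was highest in cluster 1, whose leading genes were mostly histone genes (Hist2h2ac first), with a mean of 109 CPM and 17 of 34 cells positive. This cluster met no naming rule, 33 of its cells were gated and 23 came from E9.5 replicate 2. Alx4 averaged 29.8 CPM there, with 8 cells positive. Alx4 was highest in cluster 2, which was mesenchymal-like and held 27 of its 30 cells from E10 replicate 1. Alx4 averaged 67.4 CPM in cluster 2 with 15 cells positive, and Alx1 averaged 60.3 CPM with 11 positive. The other mesenchymal-like cluster, 8, with 18 cells, averaged 55.4 CPM of Alx4 and 40.7 CPM of Alx1, with 7 and 4 cells positive and 0 positive for both.

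In some clusters cells reached the positive level for 1 of the genes only. The neural crest and glial-like cluster, 16 cells with Sox10 and Foxd3 among their leading genes, averaged 26.9 CPM of Alx1 with 4 positive cells. Alx4 averaged 3.88 CPM there, with 0 of 16 positive, but 5 cells had a UMI and the highest stood at 48.9 CPM, just under the limit. Cluster 10, 15 cells led by Pcp4 and including the somite and neural crest gene Pax3, averaged 16.9 CPM of Alx4 with 2 positive cells and 0.814 CPM of Alx1 with 0 of 15. The Dppa5a-led cluster, by contrast, reached the positive level for both genes. Alx1 averaged 36.8 CPM there with 5 of 22 cells positive, and Alx4 41.5 CPM with 7 positive, and 2 cells were positive for both. Its Alx4 mean was above the 29.8 CPM of the histone-led cluster 1. Such counts are small, and the clusters draw on different batches, so cluster and batch cannot be told apart where a single batch supplies the cells.

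The remaining clusters had low means for both genes. Means were 15.9 CPM of Alx1 and 6.58 of Alx4 in the Car12-led cluster 0, where 3 cells were positive for Alx1, 2 for Alx4 and 1 for both. The highest Alx1 cell there stood at 477 CPM, and the median was 0. The means were 9.63 and 3.47 in cluster 3, led by the smooth muscle genes Acta2 and Tagln and by the endothelial gene Cldn5, where 2 cells were positive for Alx1 and 1 for Alx4. The neuronal-like cluster had 3.97 and 0.254 CPM, with 1 of 26 cells positive for Alx1. The blood progenitor-like cluster had 1.72 and 0.297 CPM. The erythroid-like clusters 5 and 6 had 0.353 and 1.16 CPM of Alx1 and 1.85 and 0.728 CPM of Alx4.

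Erythroid cells should lack both genes and were taken as the background for free RNA. Clusters 5 and 6 held 0 cells of E10 replicate 1, which supplied 27 of the 30 cells of cluster 2. The background of that batch was therefore not measured in this way. Summed erythroid markers had medians of 6251 and 16194 CPM in the Alx-high cells of E9.5 replicates 1 and 2. In those of E10 replicates 1, 2 and 3 the medians were 358, 57753 and 10145 CPM. Gated Alx-low cells had 6677, 14935, 331, 53022 and 9136 CPM in the same order. How much of these values came from free RNA was not tested. A UMI of Alx1 was seen in 13% and 31.8% of the cells of clusters 5 and 6, and of Alx4 in 39.1% and 18.2%, at median depths of 363756 and 374214 UMIs. After thinning every cell to 30000 UMIs the shares were 0% and 0% for Alx1 and 4.35% and 4.55% for Alx4. No erythroid-like cell reached 50 CPM. After the same thinning a UMI of Alx1 was seen in 58.8% of cluster 1 and 53.3% of cluster 2, and of Alx4 in 29.4% and 56.7%. In the blood progenitor-like cluster the thinned shares were 0% for both genes, against 60% and 20% unthinned at a median depth of 527391 UMIs. A share of cells with any UMI is therefore not read as expression here, and positive cells are those at 50 CPM.

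**Figure D3:**
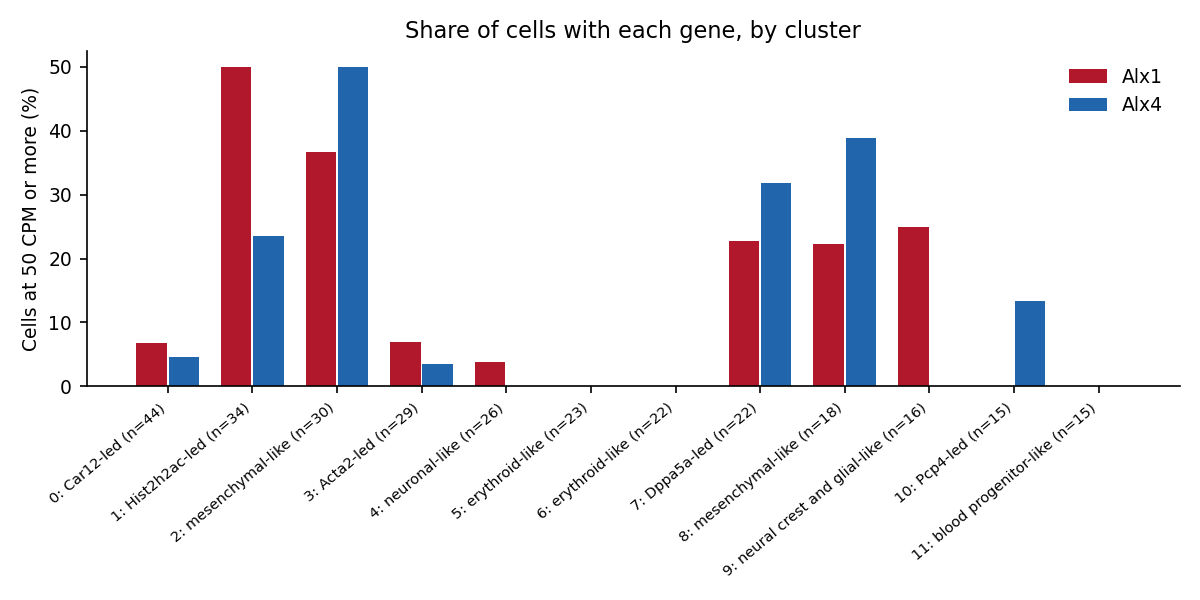
Percentage of cells at 50 CPM or more of Alx1 (red) and Alx4 (blue) in the 12 clusters, named by rule or by the first leading gene, with the number of cells in brackets. Bars are single shares without error bars; Alx1 leads in cluster 1 (50% against 23.5%) and Alx4 in cluster 2 (50% against 36.7%).

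Nearly all Alx-high cells carried Hox transcripts. A frontonasal identity is therefore not given to them, hindbrain and arch levels are not told apart from the trunk by the sum, and the cells are called by their genes. Summed over 39 Hox genes, 76 of 79 Alx-high cells (96.2%) had 200 CPM or more, a limit chosen with the values known. Among Alx-low cells 146 of 215 (67.9%) did, made up of 101 of 107 gated cells and 45 of 108 others. At E9.5, replicates 1 and 2, the summed Hox level of the Alx-high cells had medians of 394 and 968 CPM, over 3 and 14 cells. In E10 replicates 1, 2 and 3 the medians were 838, 1079 and 977 CPM, over 41, 3 and 18 cells. The Alx-low cells had medians of 406, 385, 532, 488 and 437 CPM in the same order. For comparison, the summed Hox median was 30.5 CPM in erythroid-like cluster 6 and 169 CPM in cluster 5.

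Replicate 2 of E9.5 and replicates 1 and 3 of E10 had at least 5 cells of both classes, and Alx-high cells had the higher Hox median in all 3. The difference of medians of log2(summed Hox CPM + 10) was 1.31, 0.65 and 1.13, a mean of 1.03 ± 0.34 (SD, n = 3 batches). The two-sided exact sign-flip permutation gave p = 0.25, the smallest value that 3 batches allow, so the design cannot pass 0.05. Among gated cells the differences were 0.30, 0.37 and 0.26, a mean of 0.31 ± 0.06 (SD, n = 3; exact sign-flip p = 0.25). The difference was smaller within the gate in each of the 3 batches, and the Alx-low cells outside the gate included the blood cells. Across gated cells Spearman's rho of Alx1 with summed Hox was -0.19 and 0.03 in E9.5 replicates 1 and 2. It was 0.16, -0.04 and -0.01 in E10 replicates 1, 2 and 3. For Alx4 it was -0.49, -0.07, 0.21, -0.04 and 0.19 in the same order. In E9.5 replicate 1 the 2 gated Alx-high cells had a median of 329 CPM, against 456 CPM in 17 gated Alx-low cells. In E10 replicate 2 the 1 such Alx-high cell stood at 1079 CPM, against 881 CPM in 26.

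**Figure D4:**
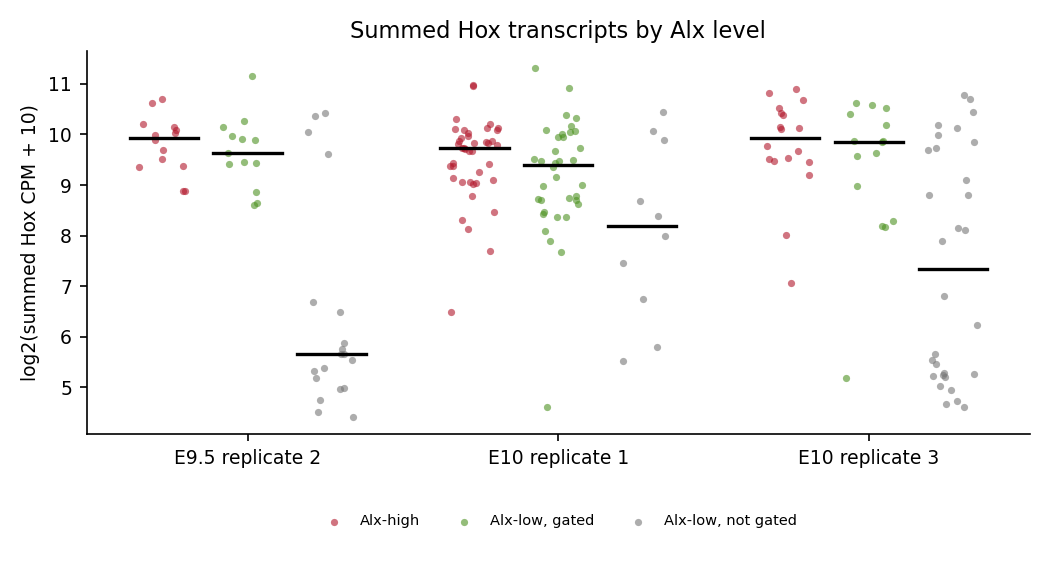
Summed Hox level, as log2 of CPM with 10 added, in Alx-high cells (red), gated Alx-low cells (green) and Alx-low cells outside the gate (grey), for the 3 batches with at least 5 cells of both classes. Points are cells and black bars medians; the gated classes overlap widely, and the low group near the bottom is made up mainly of cells outside the gate.

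The Hox genes carried by Alx-high cells differed between batches. In the Alx-high cells of E9.5 replicate 2 the median was 137 CPM for Hox 1 to 4, 392 for Hox 5 to 8 and 357 for Hox 9, with 0 for Hox 10 to 13. In E10 replicate 1 it was 645 CPM for Hox 1 to 4 and 32.2 for Hox 5 to 8, with 0 for Hox 9 and for Hox 10 to 13. In E10 replicate 3 it was 395 and 221 CPM for the first groups, then 11.2 and 6.60. The 3 Alx-high cells of E10 replicate 2 had the highest value for Hox 10 to 13, at 369 CPM. Low numbers mark hindbrain and pharyngeal arch levels as well as the neck, and higher numbers successively posterior levels of the trunk. The Alx-high cells of E10 replicate 1 carried the anterior end of the series and those of E10 replicate 2 also the posterior end. The gated Alx-low cells of the same batches had medians of 401 CPM for Hox 1 to 4 in E10 replicate 1 and 359 CPM for Hox 10 to 13 in E10 replicate 2.

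Hoxb3, a gene of the hindbrain and arch level, had the highest mean in Alx-high cells, at 171 CPM, with 74.7% of them at 20 CPM or more. It averaged 77.0 CPM in gated Alx-low cells. Hoxb3 averaged 123 CPM in cells with only Alx1, 212 CPM in those with only Alx4 and 221 CPM in those with both. Hoxc9, a trunk gene, averaged 85.8, 34.8 and 99.5 CPM in the same order. Hoxb1 averaged 34.1, 72.7 and 94.2 CPM. These means mix batches, and E10 replicate 1 supplied 22 of the 32 cells with only Alx4 but 13 of the 37 with only Alx1.

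Alx-high and Alx-low cells were then compared over all genes within the gate, with Alx1 and Alx4 setting the classes and left out of the reading. The classes are ranges of a level, not cell types. The sums held 14 and 13 cells (E9.5 replicate 2), then 38 and 36 (E10 replicate 1) and 17 and 15 (E10 replicate 3). Of 11064 genes edgeR called 2 (0.0181%), both lower in Alx-high cells, and 427 had an unadjusted p under 0.05. DESeq2 called 63, of which 12 were higher and 51 lower.

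Sct, which encodes the peptide hormone secretin, stood at 10.8, 2.31 and 14.6 CPM in the Alx-high sums of the 3 batches, in the order just given. In the Alx-low sums it stood at 582, 72.9 and 103 CPM. The log2 fold change of Sct was -4.45 (SE 0.47, edgeR adjusted p = 0.00249). Nefm, a neurofilament gene of neurons, stood at 31.8, 35.1 and 108 CPM in Alx-high sums and at 504, 287 and 276 CPM in Alx-low sums. Its log2 fold change was -2.75 (SE 0.39, edgeR adjusted p = 0.0242). Both calls were lost without E9.5 replicate 2 (edgeR adjusted p = 0.0533 for Sct and 0.0861 for Nefm), with log2 fold changes of -3.88 and -2.18. They were also lost without batch in the model (edgeR adjusted p = 0.489 for each), at -4.86 and -2.59.

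Neuronal markers differed between the classes in the same direction as the called genes. All 8 of 8 neuronal markers were lower in Alx-high sums in every batch, with a median log2 fold change of -2.43 against -0.01 for all genes, and 12.6% of all genes were lower in every batch. Of these markers only Nefm was called. The lower side was not limited to neuronal markers. The 4 somite, 3 smooth muscle and 3 epithelial markers tested were all negative, with medians of -1.69, -1.81 and -0.61. In each of these lists 1 gene was lower in every batch and 0 were called. The 3 forebrain and eye markers tested were all positive, with a median of 1.66. The gate let through 8 of the 26 neuronal-like cells and 3 of the 16 neural crest and glial-like cells. With those clusters left out, an alternative added after seeing the data, edgeR called 0 genes with 244 at an unadjusted p under 0.05. The Sct value was then -0.40 and the Nefm value 0.34 (edgeR adjusted p = 0.999 for each). Nefm and Sct are among the leading genes of the neuronal-like cluster, so removing it takes out the cells that hold them, and the part of neuronal cells in the calls was not tested.

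No mesenchymal list gene passed the test in the gated comparison. All 9 mesenchymal markers had positive values, with a median of 0.66, but 4 of them define the gate and 0 of 9 were called. Prrx1 stood at 448 CPM in Alx-high and 200 CPM in Alx-low sums on average (log2 fold change 1.09, SE 0.23, edgeR adjusted p = 0.214). Twist1, which acts in mesenchyme formation, had a value of 1.00 (SE 0.23, edgeR adjusted p = 0.286). Among 14 limb and body wall genes tested 0 were called and the median was 0.53. Irx3 averaged 183 against 38.4 CPM (2.07, SE 0.37, edgeR adjusted p = 0.0938). The lowest value of that list belonged to Tbx18, at -2.42 (SE 1.38, edgeR adjusted p = 0.998).

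The lists that bear on the face gave no call in gated cells either. The 11 frontonasal and eye-region genes tested had a median of 0.11, from -1.67 for Eya1 to 1.79 for Lhx2. The 8 pharyngeal arch genes had a median of 0.04, with Ednra, the endothelin receptor of arch mesenchyme, at 1.51 (SE 0.40, edgeR adjusted p = 0.486). The 8 Hedgehog pathway genes had a median of 0.18, with the co-receptor gene Boc at 1.77 and the ligand-binding antagonist gene Hhip at -3.86, 0 called. The 9 retinoic acid genes had a median of 0.32, with Crabp1 at 1.51 (SE 0.44, edgeR adjusted p = 0.702). The 7 paired-related homeobox genes had a median of 0.29, from Phox2a at -2.10 to Pitx1 at 2.17. The 8 migratory neural crest genes had a median of -0.15, with Pax3 at -2.40 (SE 0.54, edgeR adjusted p = 0.245). The 27 Hox genes tested had a median of -0.10, and Hoxb3 had 0.75.

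Over all kept cells, without the gate, the Alx-low sums contained blood and neural cells and many more genes differed. edgeR called 392 of 12453 genes (3.15%), 163 higher in Alx-high cells (1.31%) and 229 lower (1.84%). Erythroid markers fell in 7 of 7 cases, neuronal markers in 8 of 8 and blood progenitor markers in 3 of 8. By direction alone, 7 of 7, 8 of 8 and 6 of 8 were lower in every batch, as were 21.4% of all genes, so the change in cell mix stands beside every value that follows. How much of each value it accounts for was not tested. Summed erythroid markers reached 264892, 198166 and 277034 CPM in single Alx-low cells of the 3 batches, against 35163, 667 and 25746 CPM at most in Alx-high cells.

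In that comparison all 9 mesenchymal markers rose, among them Prrx1 by 2.25 (SE 0.31, edgeR adjusted p = 0.000556) on the log2 scale. Limb and body wall genes rose in 4 of 16 cases, Irx3 by 3.04 (SE 0.45, edgeR adjusted p = 0.000857) with Pkdcc, Meis1 and Meis2. Of 8 Hedgehog pathway genes 3 rose, the co-receptor genes Boc (2.92), Cdon (1.83) and Gas1 (1.69). Of 9 retinoic acid genes 3 rose, among them the binding protein genes Crabp1 (1.68) and Crabp2 (0.99). Of 11 frontonasal and eye-region genes the nuclear receptor genes Nr2f1 (1.36) and Nr2f2 (1.57) rose. Arch genes split, with Ednra rising by 2.47 and Hand2 changing by -2.05, lower in 2 of 3 batches. Of 30 Hox genes tested only Hoxb3 was called, at 1.30. The largest values that passed were 4.56 for the histone gene Hist1h4f and 3.59 for 1110017D15Rik among the higher genes. Among the lower genes they were -6.80 for Abcb4 and -6.49 for Pklr, the pyruvate kinase gene of red cells and liver. The differences between the gated and ungated values were not tested.

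**Figure D5:**
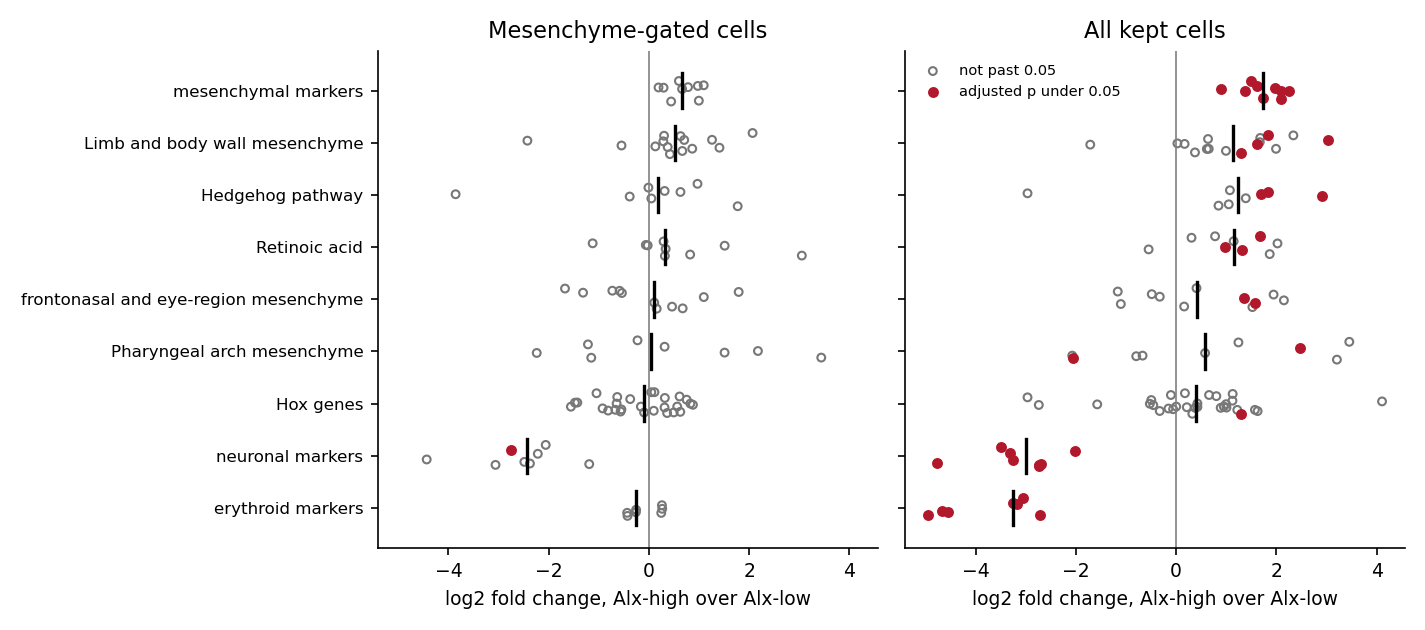
Log2 fold change of Alx-high over Alx-low cells for each tested gene of 9 lists, in gated cells (left) and in all kept cells (right); filled points passed an edgeR adjusted p of 0.05 and bars are list medians. On the left 1 gene of these lists, Nefm, is filled, and on the right the neuronal and erythroid markers lie below 0 and the mesenchymal markers above it.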

How the data were processed

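Single-cell transcript counts were measured in 5 batches of sorted cells, 2 at E9.5 and 3 at E10. The deposited table holds the authors' UMI counts, in which each count is 1 barcoded molecule, for 24411 genes, 95 spike-in rows and 480 wells. Per the submitters' processing notes, CASAVA 1.8, TopHat2 2.0.12, HTSeq and the mm10 genome were used; a strand setting is not given in the sources used here. Batches were matched to samples by the batch number in the column names, and the 5 batches used the same 96 well barcodes.

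Spike-in rows were dropped, and wells with at least 1000 genes and 30000 UMIs were kept. Kept wells repeating the same well number of another batch at under 10% of its UMIs would have been left out, but 0 did at this limit. CPM (a gene's share of a cell's UMIs, scaled to a common total) was computed per cell from these counts. No doublet caller was run, since single cells were picked by hand. A cell was called Alx-high at 50 CPM or more of either gene, and mesenchyme-gated at 100 CPM or more of Prrx1, Prrx2, Twist1 and Twist2 summed. Sums were taken by batch, or by batch and class if both classes had at least 5 cells, and were fitted over all genes with edgeR 4.0.16 (filterByExpr, TMM, quasi-likelihood test, Benjamini-Hochberg threshold of 0.05), with batch as a block for classes. DESeq2 1.42.0 was the second tool. Standard errors of log2 fold changes are the absolute value over the root of F. The block follows from both sums of a batch coming from the same collection. Shares of cells were compared by exact permutation of batches. Shares carry 95% exact (Clopper-Pearson) intervals, which cover counting error only, and a share of 0 carries the limit that 3 counts set.

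Cells were clustered with scanpy 1.11.5 and leidenalg 0.10.2 (2000 variable genes, 20 components, 15 neighbours, resolution 1.0, seed 0), without Alx, Hox, globin, ribosomal protein and sex-linked genes and the gene lists that are not cell type markers. A cluster was named if 3 or more of a list's markers reached a median of 20 CPM, and 2-fold the mean elsewhere. The name was withheld when its 10 leading genes, ranked by fold on CPM + 10 and detected in 25% of its cells, held more markers of another list. This naming rule came from an earlier analysis of the same data.

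The rule for named genes took both members and the 10 genes most alike each by mean within-batch Spearman rho. It added up to 10 called genes per direction in the class fit whose mean count reached 10 with the same direction in every batch, and up to 4 genes per list. Members, lists and rules were chosen with earlier results of these data known. On simulated counts for 11561 genes, with a fixed dispersion, the class fit recovered 76% of genes changed by 2 on the log2 scale and 9% of those changed by 1. The stage fit on 14420 genes recovered 70% and 8%. The simulated batches differed in depth but not in cell mix, so these shares can overstate what the fits recover from the real batches. Alternatives covered the UMI and CPM minimums, thinning to 30000 UMIs, scaling, tool, filter, block, gate and each batch left out. Values of some list genes are not reported here.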

Additional observations from a re-analysis of the deposited data

Results flagged for a closer look

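Alx1 had 7 UMIs in 3 wells that were left out for too few genes or UMIs, above the limit of 3 counts set for a count of 0. The 186 wells left out held 505523 UMIs, so Alx1 stood at 13.8 CPM there, within the 4.49 to 34.4 CPM of the batches of kept cells. Alx4 had 3 UMIs in 3 such wells. Of these wells 75 held any UMI, and 1 of the 3 with Alx1 held 4 of its UMIs.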

How the results depend on the processing

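No paired analysis was possible because the replicate numbers of the stages follow accession order and pair nothing. The batch block of the class comparison was kept as the main fit, and without the replicate block edgeR called 0 genes (277 at an unadjusted p under 0.05). The number of genes called in that comparison, 2, moved under most settings: 5 with RLE scaling, 63 with DESeq2, 65 without the filter on low counts, 10 and 18 at limits of 20 and 100 CPM, 12 after thinning, 392 without the gate, and 1 to 62 with a batch left out. Of the settings added after seeing the data, leaving out the Dppa5a-led cluster gave 1 gene. Leaving out the neuronal-like and neural crest and glial-like clusters gave 0 genes and a Nefm value of 0.34. Nefm and Sct are among the leading genes of the neuronal-like cluster. The cause of the moves under any of these settings was not tested. The difference in Alx1-positive share between stages, -2.40 percentage points, became 1.00 at a minimum of 100000 UMIs and ran from -11.6 to 6.80 with a batch left out. That of double-positive cells, 2.73, became -0.32 at 100 CPM. Co-expression moved to 10% at 100 CPM. With a batch left out, the stage value of Alx1 ran from -1.15 to 0.62 over all cells and from -1.73 to 1.29 in gated cells; the lone E9.5 sample is then assumed to vary like the others. The Hox difference kept its sign under all 9 alternatives, from 0.31 to 1.70. All 3 batch differences of the main setting were positive, so leaving 1 batch out could not change the sign. None of the 9 included E9.5 replicate 1. E9.5 replicate 1 and E10 replicate 2 had 3 Alx-high cells each, which limits what they show and kept them out of the class comparisons.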
